A study of Homo sapiens with 6 samples.

Results

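The respiratory chain and the ATP synthase of the inner mitochondrial membrane were followed in human uveal melanoma cells, a tumour of the pigment cells of the eye, grown alone or with activated T cells. Their genes were taken as all those whose array symbol began with NDUFA, NDUFB, NDUFC, NDUFS or NDUFV (complex I), SDHA to SDHD (complex II), UQCR (complex III), COX4 to COX8 (complex IV) or ATP5 (complex V), without pseudogenes and assembly factors. COXFA4 and COXFA4L2 were added under their former symbols NDUFA4 and NDUFA4L2 and counted in complex IV, where current naming puts them. This gave 81 of the 18417 genes that a probe set with 1 gene symbol represented: 34 of complex I, 3 of complex II, 7 of complex III, 19 of complex IV and 18 of complex V. The genes NDUFC2, NDUFS5 and ATP5F1E, whose probe sets carry several symbols, were not analysed here, nor were SDHB, UQCRFS1 and the 13 subunits encoded by mitochondrial DNA.

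The established lines were Mel 270, Mel 290 and 92.1, here always given in the order 92.1, Mel 270, Mel 290. Each was kept for 64 h in serum-free X-VIVO 15 medium, either alone or with T cells from the blood of healthy volunteers that had been activated with CD3/CD28 beads and sat in a porous insert above the melanoma cells. The pores of 0.4 µm let soluble factors through, and the melanoma cells were scraped off for RNA. Per the labels, 80000 cells of 92.1 and 100000 of each other line had been plated. No other agent separated the groups, and the alone cultures saw the same medium. There was 1 array per line and condition, 6 in all, so the 3 lines were the replicates. Nothing in the labels describes repeat cultures of a line. Co-culture p-values below set a change against its spread between lines, which limma moderates with the spread of all genes. Tests of levels between lines use the spread left after line and culture.

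The arrays were alike in distribution, with medians from 6.63 to 6.69 on the log2 scale. Among the T cell markers, CD3D, CD3E and CD3G, which define T cells, and PTPRC, found on all leukocytes, never exceeded 5.70, below the level of 5.80 that a gene's mean had to reach to be tested. Of 12 measured T cell markers, 7 lay below that level on all arrays, and the sum of all 12 was 66.48 to 68.86 alone and 66.23 to 69.10 in co-culture. The highest of them, CD7, read 8.12 to 8.36 alone and 8.22 to 8.50 in co-culture and was slightly higher in each line, while CD8A and LCK reached 6.73 and 6.46 alone and 6.63 and 6.45 in co-culture. For 8 monocyte and macrophage markers, 3 of them below the level throughout, the sums were 46.50 to 48.66 and 46.43 to 50.99. Of these CD68, a lysosomal protein, was higher in all 3 lines, at 10.07, 9.32 and 11.09 alone and 10.27, 10.76 and 11.70 in co-culture. FCER1G, a receptor chain of myeloid cells, read 4.35, 4.36 and 4.57 alone and 4.44, 5.46 and 5.58 in co-culture, below the level throughout. CSF1R went the other way in all 3 lines, from 5.73, 5.81 and 6.76 alone to 5.49, 5.67 and 6.31 in co-culture. The remaining markers had mean changes from -0.07 to 0.07. The pigment cell genes MLANA, PMEL, TYR and TYRP1 lay between 10.96 and 13.19 in 92.1 and Mel 270 grown alone and between 4.79 and 6.10 in Mel 290. The other melanocyte markers were less clear-cut: the lineage regulators MITF and SOX10 read 8.96 and 6.84 in Mel 290, and S100B was as low in 92.1 (4.71) as in Mel 290 (4.67). In co-culture the 8 tested melanocyte markers had a median change of -0.71, with none past the limma adjusted threshold. In all 3 lines 5 of them were lower, against 25.5% of all tested genes. The part of these marker differences in the results below was not tested. In bulk RNA, fewer cells of a type and less RNA per cell cannot be told apart.

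Complexes I and II feed electrons from NADH and succinate into ubiquinone, complex III passes them to cytochrome c, and complex IV hands them to oxygen. Complexes I, III and IV pump protons as they do so, and complex V, the ATP synthase, lets protons back through a rotating ring of c subunits to make ATP. The nuclear genes of these complexes encode most of their subunits and are known to be transcribed under shared factors such as NRF1, GABP (an ETS factor), YY1 and ERR alpha.

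Promoters are shown for one gene of each complex because the members shared a direction in co-culture, as the values further on show. Each is the tested member with the lowest mean change in its complex that had a window in the RefSeq promoter table (GRCh38.p14) and did not lie on a chromosome left out of sequence display here. The 150 bases before the annotated gene start are printed 5′ to 3′ on the gene's strand, with matches to 3 of the searched motifs in capitals: GCGCANGCG for NRF1, CCGGAAG for ETS factors and AAGATGGC for YY1, each on either strand. The stretches lie at chr9:32573160-32573309 on the minus strand for NDUFB6 (complex I), chr11:112086723-112086872 on the plus strand for SDHD (complex II), chr1:46303548-46303697 on the plus strand for UQCRH (complex III), chr7:10940154-10940303 on the minus strand for COXFA4 (complex IV) and chr18:46098297-46098446 on the minus strand for ATP5F1A (complex V).
NDUFB6: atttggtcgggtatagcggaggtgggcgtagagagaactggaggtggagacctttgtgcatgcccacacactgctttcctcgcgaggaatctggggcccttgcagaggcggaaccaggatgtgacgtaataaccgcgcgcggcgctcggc
SDHD: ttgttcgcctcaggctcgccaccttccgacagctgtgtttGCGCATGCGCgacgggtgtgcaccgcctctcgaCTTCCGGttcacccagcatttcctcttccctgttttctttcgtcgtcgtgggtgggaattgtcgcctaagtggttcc
UQCRH: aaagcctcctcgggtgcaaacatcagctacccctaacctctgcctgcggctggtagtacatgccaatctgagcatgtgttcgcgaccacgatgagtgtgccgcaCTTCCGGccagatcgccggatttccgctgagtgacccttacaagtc
COXFA4: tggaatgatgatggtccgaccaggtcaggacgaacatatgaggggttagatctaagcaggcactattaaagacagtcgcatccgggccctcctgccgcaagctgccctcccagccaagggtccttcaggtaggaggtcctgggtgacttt
ATP5F1A: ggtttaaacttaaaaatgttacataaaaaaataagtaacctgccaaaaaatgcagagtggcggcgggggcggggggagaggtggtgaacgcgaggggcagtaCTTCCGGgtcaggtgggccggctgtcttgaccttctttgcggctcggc

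The capitals mark a palindromic NRF1 match, read on both strands, followed by an ETS match on the opposite strand in SDHD, and 1 ETS match each in UQCRH and ATP5F1A. Of these stretches, those of NDUFB6 and COXFA4 hold none of the motifs, which says only that these letters are not in the window. Windows of 250 bases before to 50 after the gene start were available for 69 of the 81 members. The NRF1 motif was in 21 of them (30.4%), against 10.9% of the 14237 windows of all array genes. ETS motifs were in 19 (27.5%, against 14.3%) and YY1 motifs in 11 (15.9%, against 4.0%). The ERR motif TCAAGGTCA was in 1 window (1.45%, against 0.197%), that of SDHD. In all, 41 of the 69 windows held at least 1 motif. The same count was not made over all array genes, so the 41 have no background here. No matches of different motifs overlapped in the windows of members. The median change was -0.406 for 20 tested members with an NRF1 motif and -0.307 for 46 without, -0.32 for 19 with an ETS motif and -0.35 for 47 without, and -0.37 for 11 with a YY1 motif and -0.335 for 55 without. For NRF1, ETS and YY1, members with and without the motif had medians closer to each other than to the -0.04 of all tested genes. Whether the motifs bear on the changes was not tested. A match is a description of letters, not a measured binding site.

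Co-culture was compared with growth alone to ask how the chain as a whole differed between them. Most subunit genes were slightly lower in co-culture in every line, by 1.28-fold at the median, and none passed the test over all genes. A change here is the co-culture log2 value less the alone value of the same line, given as mean ± SD over the 3 lines. Of the 81 genes, 77 reached the filter level of 5.80 and were tested. With limma and Benjamini-Hochberg adjustment over 13808 genes, 0 of the 77 had an adjusted p under 0.05 in either direction, where 0.0362% of all tested genes were called lower and 0.413% higher. The smallest adjusted p of a member was 0.0822. At an unadjusted limma p under 0.05, 39 members (50.6%) were lower and 0 higher, against 13.0% and 7.02% of all tested genes. The count of 39 became 16 without the cell line as a block, 10 without 92.1 and 15 without Mel 270.

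The direction was common to nearly the whole group. The mean change was below 0 for 70 of 77 members (90.9%, against 57.1% of all tested genes). In all 3 lines 59 members (76.6%) were lower, against 25.5% of tested genes, and 1 member, UQCRB, was higher in all 3, against 16.2%. For 24 members (31.2%) the 3 co-culture values all lay below the 3 alone values, against 5.96% of tested genes. The reverse held for UQCRB only (1.3% of members, against 4.03%). The median change of the members was -0.35, compared with -0.04 for all tested genes and -0.05 for the 9241 genes tested at or above the array's median level. Mean changes of members ran from -0.94 to 0.27. The far larger set of all tested genes ran from -2.57 to 9.11, with its 2nd percentile at -0.98 and its 86th at 0.28.

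**Figure D1:**
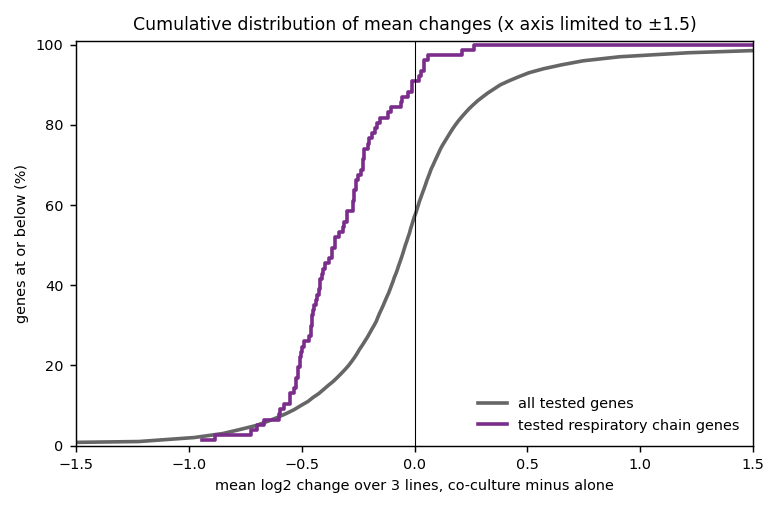
Cumulative share of genes (y axis, percent) at or below each mean change over 3 lines (x axis, log2, co-culture minus alone), for the 77 tested respiratory chain genes (purple) and all 13808 tested genes (grey). The purple curve lies to the left over most of its length, with a median of -0.35 against -0.04.

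Complex I, which oxidises NADH, had 34 tested genes with a median change of -0.34. Of these, 26 were lower in all 3 lines, against 25.5% of all tested genes. At an unadjusted limma p under 0.05, 16 were lower, against 13.0%. Its lowest gene was NDUFB6, an accessory subunit of the membrane arm (probe set 8160587). NDUFB6 read 8.19, 7.21 and 7.88 alone in 92.1, Mel 270 and Mel 290, and 7.03, 6.61 and 6.82 in co-culture. Every co-culture value lay below every value alone, with the smallest step in Mel 270. The change was -0.94 ± 0.30 (SD, n = 3 lines, 1.92-fold lower, limma adjusted p = 0.0822). NDUFB5, another accessory subunit of that arm, read 9.98, 10.21 and 10.14 alone and 9.38, 9.57 and 9.29 in co-culture. Its groups did not overlap either, and the widest step was in Mel 290 (-0.85, against -0.60 in 92.1 and -0.64 in Mel 270). Its mean change was -0.70 ± 0.14 (1.62-fold, limma adjusted p = 0.0878).

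Core subunits of complex I, those that carry the redox centres or their close partners, had a median change of -0.40 over 6 tested genes, against -0.30 for 28 accessory subunits. In 92.1 that order was turned, with -0.32 for the core and -0.44 for the accessory genes. NDUFV1, which holds the flavin where NADH gives up its electrons, read 9.74, 10.12 and 9.87 alone and 9.23, 9.60 and 9.29 in co-culture. The 3 steps were nearly the same size and the groups were apart, with a change of -0.53 ± 0.04 (limma adjusted p = 0.112). NDUFS7, whose iron-sulphur cluster passes electrons to ubiquinone, read 8.18, 8.71 and 8.12 alone and 7.81, 7.79 and 8.06 in co-culture. Most of its difference came from Mel 270, with changes of -0.38, -0.92 and -0.05 (mean -0.45 ± 0.44, limma adjusted p = 0.299). The 11 NDUFB genes had a median of -0.27 and were uneven: beside NDUFB6 and NDUFB5 stood NDUFB8, a further membrane arm subunit, at 0.11, 0.22 and -0.20 (mean 0.04 ± 0.22). The highest gene of complex I was NDUFA9, an accessory subunit of the matrix arm, at 0.06 ± 0.06 (limma adjusted p = 0.854). NDUFA13 in 92.1 and NDUFB1 in Mel 290, both at 0.16, were among the highest members of those lines.

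**Figure D2:**
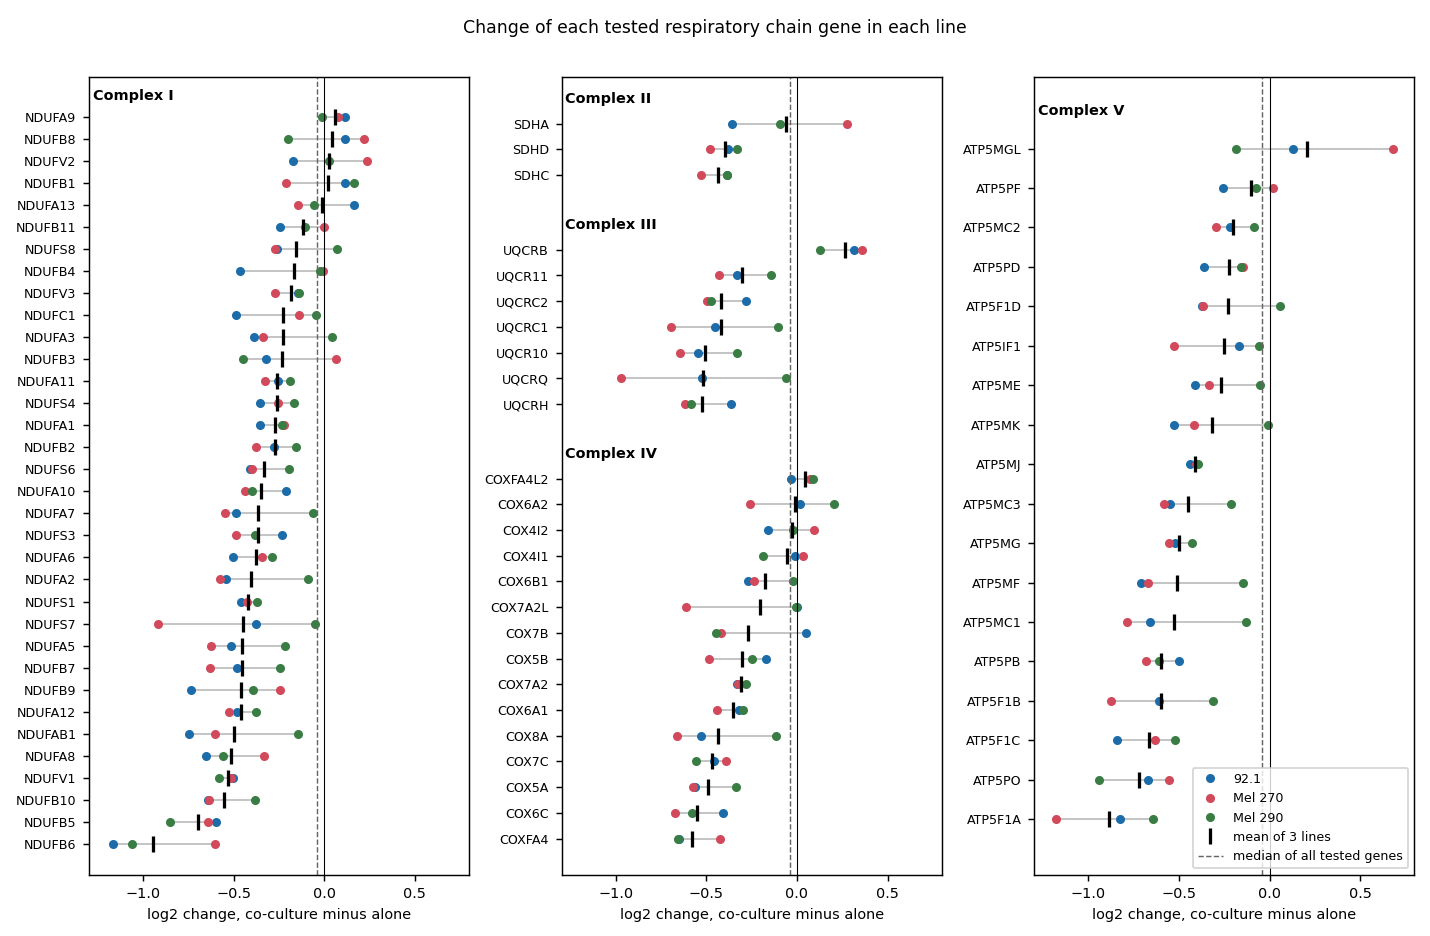
Change of every tested member (log2, co-culture minus alone) by complex, with a coloured point per line, a black bar for the mean over 3 lines and a dashed line at the median of all tested genes (-0.04). Most means lie below 0 in each complex, with NDUFB6 (-0.94) and ATP5F1A (-0.88) lowest and UQCRB (0.27) highest.

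Complex II is succinate dehydrogenase, the only enzyme that belongs to both the tricarboxylic acid cycle and the chain. None of its 3 measured genes passed the test. The anchor gene SDHC read 10.85, 11.14 and 10.55 alone and 10.46, 10.61 and 10.16 in co-culture, lower in each line although the groups overlapped across lines (-0.43 ± 0.08, limma adjusted p = 0.15). SDHD, the other anchor, read 9.52, 9.93 and 10.71 alone and 9.14, 9.45 and 10.38 in co-culture. Mel 290 was high in both conditions, so the groups overlapped, while each line was lower by a similar step (-0.40 ± 0.08, limma adjusted p = 0.173). SDHA, the flavoprotein that oxidises succinate, had changes of -0.36 in 92.1, 0.27 in Mel 270 and -0.09 in Mel 290 (mean -0.06 ± 0.32, limma adjusted p = 0.899). RefSeq names 5 pseudogenes of SDHC and 7 of SDHD, and 47 of the 81 members have at least 1, so probe sets may also bind transcripts of such copies. The second probe set of SDHC gave -0.24 ± 0.25 and that of SDHD -0.30 ± 0.15. The iron-sulphur subunit SDHB was not analysed here.

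Complex III, which moves electrons from ubiquinol to cytochrome c, had a median change of -0.42 over 7 genes. Of these, 6 were lower in all 3 lines, against 25.5% of all tested genes. At an unadjusted limma p under 0.05, 4 were lower, against 13.0%. The hinge subunit gene UQCRH, which supports the contact of cytochrome c1 with cytochrome c, read 6.69, 7.39 and 6.71 alone and 6.32, 6.77 and 6.12 in co-culture. The co-culture value of Mel 270 lay just above the alone values of 92.1 and Mel 290 (-0.52 ± 0.14, 1.44-fold lower, limma adjusted p = 0.126). UQCRQ, a small subunit, had the same mean with a wide spread, at -0.52 in 92.1, -0.97 in Mel 270 and -0.06 in Mel 290 (mean -0.52 ± 0.46, limma adjusted p = 0.251). The core protein genes UQCRC1 and UQCRC2 were at -0.42 ± 0.30 and -0.42 ± 0.12. UQCR11, a small subunit, was at -0.30 ± 0.15.

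UQCRB ran against the rest. This small subunit gene, whose product contacts the ubiquinone site, read 7.79, 7.74 and 8.06 alone and 8.10, 8.10 and 8.19 in co-culture. All co-culture values lay above all alone values. The change was 0.27 ± 0.12 (1.2-fold higher, limma adjusted p = 0.337), the highest mean among the 77 members, and it did not pass the test. CYC1, the cytochrome c1 of complex III that the symbol rule leaves out, was lower in each line, from 9.54, 9.85 and 9.31 to 9.11, 9.28 and 8.98 (-0.44 ± 0.12, limma adjusted p = 0.152). Cytochrome c itself, CYCS, had changes of -0.62, 0.12 and -0.36 (mean -0.28 ± 0.37, limma adjusted p = 0.462).

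**Figure D3:**
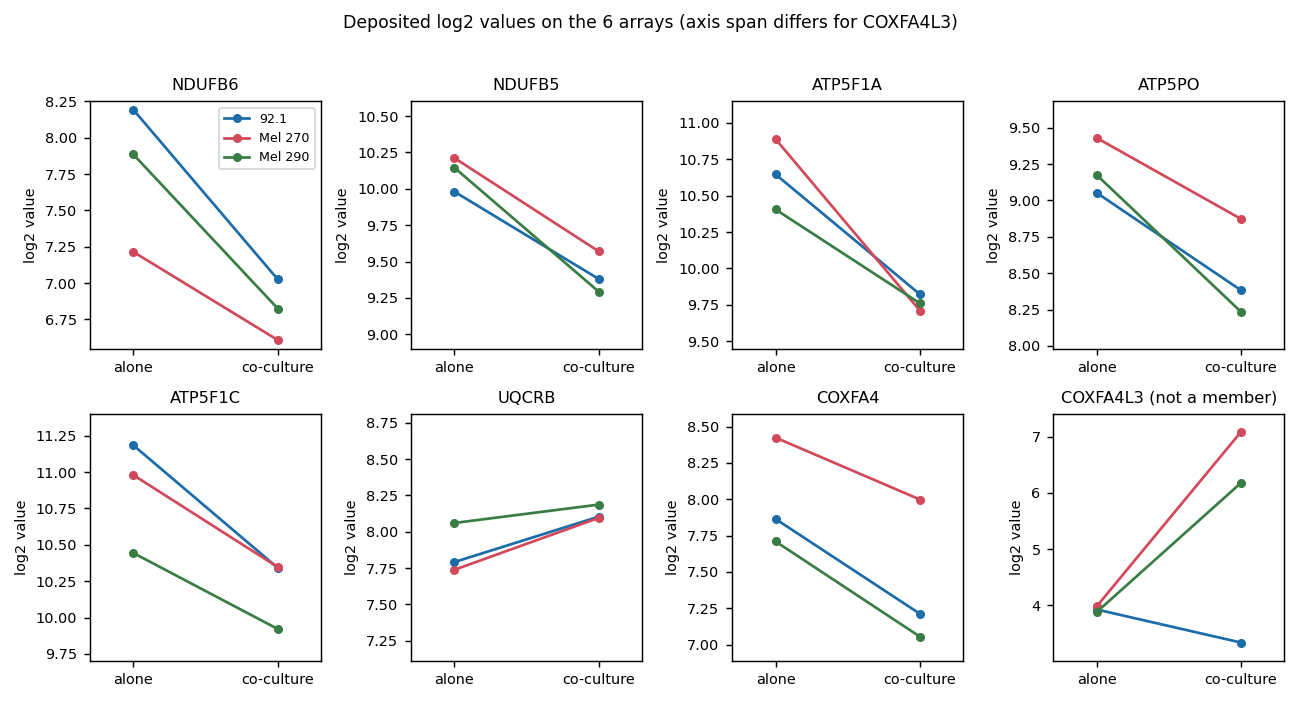
Log2 values (y axis) on each of the 6 arrays for 7 members and for COXFA4L3, which is no member, with a coloured line joining the alone and co-culture array of each cell line. In co-culture NDUFB6, NDUFB5, ATP5F1A, ATP5PO and ATP5F1C lie below all their values alone and UQCRB lies above, while COXFA4L3 is higher in Mel 270 and Mel 290 alone among the lines.

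Complex IV, cytochrome c oxidase, had 15 tested genes with a median change of -0.30. Of these, 10 were lower in all 3 lines, against 25.5% of all tested genes. At an unadjusted limma p under 0.05, 7 were lower, against 13.0%. COXFA4, a subunit once assigned to complex I, read 7.86, 8.42 and 7.71 alone and 7.21, 8.0 and 7.05 in co-culture. Each line was lower, and Mel 270 was the highest in both conditions so that the groups overlapped (-0.58 ± 0.13, 1.49-fold, limma adjusted p = 0.11). COX6C, a small membrane subunit, read 10.26, 10.13 and 9.62 alone and 9.85, 9.46 and 9.04 in co-culture (-0.55 ± 0.14, limma adjusted p = 0.117). It too was lower in every line with overlapping groups.

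COXFA4 has a paralog, COXFA4L3 (also C15orf48), known as an inflammation-induced subunit that can take its place and that the symbol rule does not take in. COXFA4L3 read 3.92, 3.98 and 3.88 alone and 3.34, 7.09 and 6.18 in co-culture. In Mel 270 and Mel 290 it was higher with T cells, by 8.63-fold and 4.93-fold, while in 92.1 it was not. Its alone values lay below the filter level, so these folds are imprecise. Setting every value under 5.80 to 5.80 left folds of 2.44 and 1.3. Its mean was under the filter level and it was not in the main test. Without the filter its limma adjusted p was 0.358. COXFA4L2, the paralog known to be induced by hypoxia, was at 0.04 ± 0.07 (limma adjusted p = 0.903).

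The isoform pairs of complex IV, in which one gene is broadly expressed and the other belongs to certain tissues or conditions, are described next, and none of their genes passed the limma test. COX4I1 read 8.97, 8.82 and 8.98 alone and 8.96, 8.85 and 8.80 in co-culture, with little difference in any line (-0.06 ± 0.12, limma adjusted p = 0.873). Its lung and hypoxia isoform COX4I2 was at -0.03 ± 0.13. COX6A1 was at -0.35 ± 0.08 and its muscle isoform COX6A2 at -0.01 ± 0.23, with 0.21 in Mel 290, the highest member of that line. COX6B1 was at -0.18 ± 0.13. COX7A2 was lower by nearly the same step in each line (-0.31 ± 0.03), whereas COX7A2L, which helps to join complexes III and IV, read 9.34 under both conditions in 92.1 and in Mel 290 and 9.67 against 9.06 in Mel 270 (-0.20 ± 0.35), so it counts as lower in all 3 lines only by differences too small to print. COX7B was at -0.27 ± 0.28 and COX8A at -0.44 ± 0.29. The tissue isoforms COX6B2, COX7A1, COX7B2 and COX8C were below the filter level and untested, with array values from 3.60 to 5.67. Their changes were 0.21, -0.09, -0.08 and -0.08.

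Complex V, the ATP synthase, had 18 tested genes with a median change of -0.43. Of these, 15 were lower in all 3 lines, against 25.5% of all tested genes. At an unadjusted limma p under 0.05, 10 were lower, against 13.0%. The 4 measured genes of the F1 head, where ATP is made, had the lowest median of the subassemblies, at -0.63. ATP5F1A, the alpha subunit, read 10.65, 10.89 and 10.40 alone and 9.82, 9.71 and 9.76 in co-culture. The lines sat close together in co-culture, all below the lowest alone value, and the widest step was in Mel 270 (-0.88 ± 0.27, 1.85-fold lower, limma adjusted p = 0.084). The catalytic beta subunit gene ATP5F1B read 11.97, 12.03 and 12.06 alone and 11.36, 11.16 and 11.75 in co-culture. Its groups were also apart (-0.60 ± 0.28, limma adjusted p = 0.136). ATP5F1D, the delta subunit at the foot of the shaft, was nearer to 0, at -0.37 in 92.1 and in Mel 270 and 0.06 in Mel 290 (mean -0.23 ± 0.25).

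ATP5F1C encodes the gamma subunit, the shaft that turns inside the head. It read 11.18, 10.98 and 10.44 alone and 10.34, 10.35 and 9.92 in co-culture, just without overlap (-0.67 ± 0.16, limma adjusted p = 0.0953). In the peripheral stalk, which holds the head still, the 4 genes had a median of -0.41. ATP5PO, which ties the stalk to the head, read 9.05, 9.43 and 9.18 alone and 8.38, 8.87 and 8.23 in co-culture, with the widest step in Mel 290 and no overlap (-0.72 ± 0.20, limma adjusted p = 0.0906). The stalk gene ATP5PB was at -0.60 ± 0.09 and ATP5PF at -0.10 ± 0.14, so the stalk genes were not equally lower. NDUFB6, ATP5F1A, NDUFB5, ATP5PO and ATP5F1C were the 5 members with a limma adjusted p under 0.1, at which 2.53% of all tested genes were lower.

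The c ring subunit is made from 3 genes whose mature proteins are the same. ATP5MC1 read 12.00, 12.24 and 11.71 alone and 11.34, 11.45 and 11.58 in co-culture, with a small step in Mel 290 (-0.52 ± 0.35, limma adjusted p = 0.196). ATP5MC2 was at -0.20 ± 0.11 and ATP5MC3 at -0.45 ± 0.21, and all 3 genes were lower in every line. The 5 small membrane subunits ATP5ME, ATP5MF, ATP5MG, ATP5MJ and ATP5MK were all lower in every line too, with a median of -0.41. Of all tested genes, 25.5% were lower in every line. ATP5IF1, the inhibitor that binds the head when the proton gradient collapses, was at -0.25 ± 0.25. ATP5MGL, a paralog of the g subunit gene, read 6.61, 6.35 and 6.53 alone and 6.73, 7.03 and 6.35 in co-culture. It was higher in Mel 270 and lower in Mel 290 (0.21 ± 0.44, limma adjusted p = 0.639).

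Each line was then described by itself, without a test since it had 1 array per condition. Over all members the median change was -0.39 in 92.1, -0.43 in Mel 270 and -0.19 in Mel 290, while all tested genes had medians of -0.08, -0.06 and 0.01. In 92.1, 69 of 77 members were lower, in Mel 270 66 and in Mel 290 69, against 60.1%, 57.3% and 49.2% of tested genes. By size the lines differed more. At least 1.5-fold lower were 13 members in 92.1 (16.9%, against 10.0% of tested genes), 20 in Mel 270 (26.0%, against 11.4%) and 7 in Mel 290 (9.09%, against 8.83%). The share in Mel 290 was thus near its background. ATP5MGL in Mel 270 was the only member at least 1.5-fold higher in a line, where 7.8% of tested genes in 92.1, 10.7% in Mel 270 and 4.77% in Mel 290 were so. No member was at least 2-fold higher, against 3.63%, 5.29% and 2.07% of tested genes.

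The complexes were not ordered alike in the 3 lines. In 92.1 complex V had the lowest median (-0.51), followed by I (-0.40), II (-0.38), III (-0.37) and IV (-0.27). In Mel 270 complex III was lowest (-0.62), followed by V (-0.54), II (-0.48), IV (-0.42) and I (-0.34). In Mel 290 the medians were -0.33 for II, -0.25 for IV, -0.19 for I, -0.17 for V and -0.14 for III. The order in Mel 290 turned on the processing: with cyclic loess complex IV was nearest to 0 there (-0.13), as it was without the filter (-0.12). Medians of complex II rest on 3 genes and those of complex III on 7, and whether the lines or complexes differ was not tested.

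**Figure D4:**
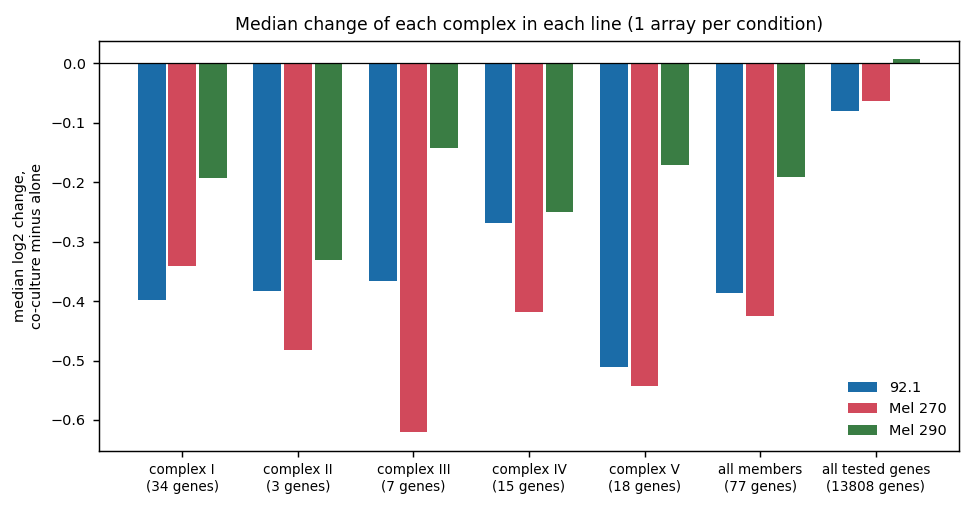
Bars give the median change (log2, co-culture minus alone) over the tested members of each complex in each line, beside all members and all tested genes. Every bar of a complex lies below 0, between -0.62 (complex III, Mel 270) and -0.14 (complex III, Mel 290).

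The members furthest from 0 also changed with the line. NDUFB6 was at least 2-fold lower in 92.1 (-1.17) and Mel 290 (-1.06), and ATP5F1A in Mel 270 (-1.18). These were the only members past 2-fold in a line, against 2.71%, 4.52% and 2.3% of tested genes at least 2-fold lower in 92.1, Mel 270 and Mel 290. Next came ATP5F1C (-0.84) and ATP5F1A (-0.83) in 92.1, UQCRQ (-0.97) and NDUFS7 (-0.92) in Mel 270, and ATP5PO (-0.94) and NDUFB5 (-0.85) in Mel 290. At the other end, UQCRB was among the 3 highest members in every line, at 0.31, 0.36 and 0.13.

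Levels were also compared between lines, each line against the mean of the other 2 over both conditions. The members stood somewhat higher in Mel 270 (median difference 0.22, with 62 of 77 above) and lower in Mel 290 (-0.16, with 56 below), with 92.1 between (-0.08). For all tested genes the median difference was -0.03 for 92.1, 0.02 for Mel 270 and 0.00 for Mel 290. Of these 13808 genes, 7208 stood above the other lines in Mel 270 and 6827 below them in Mel 290. On the arrays grown alone the members' median difference was -0.08 for 92.1, 0.29 for Mel 270 and -0.23 for Mel 290. In the limma fit, 5 members passed an adjusted p under 0.05 as higher in Mel 270 (6.49%, against 6.83% of tested genes), 4 as lower in Mel 290 (5.19%, against 14.9%), 1 as higher there (1.3%, against 11.3%) and 2 as lower in 92.1 (2.6%, against 6.18%). None was called higher in 92.1 (against 9.73%) or lower in Mel 270 (against 7.62%). These shares did not exceed the background. The fit had no repeat cultures, and its spread holds the unequal responses of the lines.

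The widest gap between line means was that of SDHD, at 9.33 in 92.1, 9.69 in Mel 270 and 10.54 in Mel 290. SDHD was higher in Mel 290 (difference 1.03, limma adjusted p = 0.00688) and lower in 92.1 (-0.78, limma adjusted p = 0.0228). The difference of 92.1 takes in the high Mel 290, and 92.1 grown alone (9.52) read above Mel 270 in co-culture (9.45). The second SDHD probe set put Mel 290 highest as well with a narrower gap, at line means of 7.89, 7.98 and 8.68. On that probe set 92.1 and Mel 270 grown alone both read 8.12. NDUFB4, a membrane arm subunit of complex I, had line means of 8.66, 9.75 and 9.47 and was lower in 92.1 (-0.95, limma adjusted p = 0.024). Mel 270 was the high line for NDUFA6, an accessory subunit (9.44, 10.33 and 9.49, limma adjusted p = 0.0207), for NDUFA3, another accessory subunit (9.55, 10.13 and 9.27, limma adjusted p = 0.0431) and for COXFA4 (7.54, 8.21 and 7.38, limma adjusted p = 0.03). NDUFA1 and UQCRH were the other members higher in Mel 270 (differences 0.63 and 0.62, limma adjusted p = 0.0382 and 0.0447). The 4 lower in Mel 290 were NDUFB9 (-0.70), NDUFA8 (-0.67), COX6C (-0.60) and ATP5F1C (-0.53), with limma adjusted p from 0.0267 to 0.0489. For NDUFA6, 92.1 and Mel 290 had nearly the same mean and did not differ beyond their spread.

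**Figure D5:**
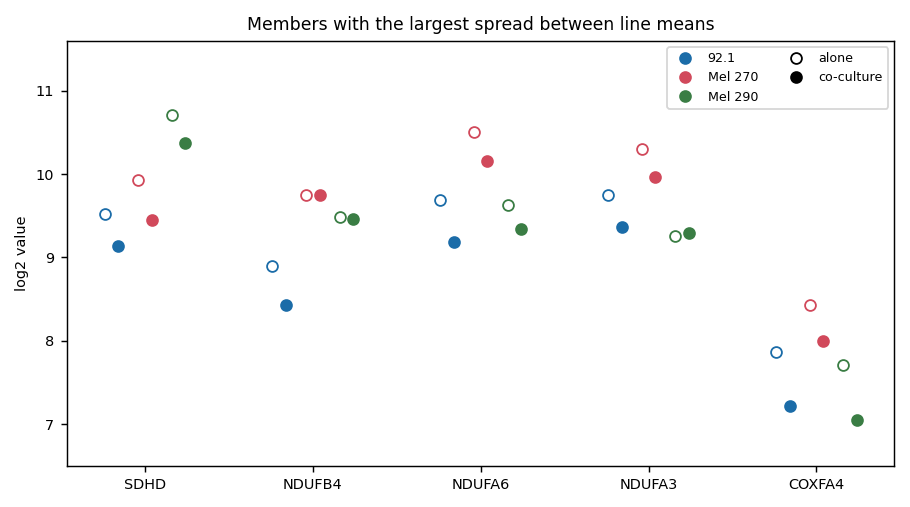
Log2 levels of the 5 members with the widest gaps between line means, coloured by line, with open points for arrays grown alone and filled points for co-culture. SDHD is highest in Mel 290 (mean 10.54) and the other 4 are highest in Mel 270.

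Other mitochondrial gene lists were read beside the subunits, and none of their genes passed an adjusted p under 0.05 in co-culture. Their counts of genes lower or higher in all 3 lines stand against 25.5% and 16.2% of all tested genes. The tricarboxylic acid cycle supplies NADH and succinate to the chain. Its list here also took in genes of the pyruvate dehydrogenase complex, such as PDHA1, and left out the SDH genes. This list had the lowest median, -0.47 over 16 tested genes, with 14 of them lower in all 3 lines. At an unadjusted limma p under 0.05, 12 were lower, against 13.0% of all tested genes. Carriers and subunits outside the symbol rule had a median of -0.38 over 11 tested genes, 7 lower in all lines. Assembly factors, which build the complexes without staying in them, had medians of -0.33 over 17 genes for complex I, -0.26 over 14 for complexes II, III and V, and -0.30 over 23 for complex IV. In all 3 lines 11, 8 and 14 of these were lower, and 0, 0 and 3 higher. The mitochondrial ribosome, which translates the subunits encoded by mitochondrial DNA, had a median of -0.28 over 73 genes, 48 lower and 2 higher in all lines. Coenzyme Q synthesis was mixed: 2 of 13 genes were lower and 2 higher in all lines, neither above the share of all tested genes, with a median of -0.29.

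The single genes given next were picked from the lowest changes of their lists after the values were seen. That their steps resemble those of the lowest subunits follows from this choice and is no separate result. SLC25A5, an ADP/ATP carrier that exports the ATP made by complex V, was at -1.09 ± 0.40 (2.13-fold lower, limma adjusted p = 0.0835). PDHA1, of the pyruvate dehydrogenase complex, was at -0.81 ± 0.25 (limma adjusted p = 0.087), and CS, citrate synthase, at -0.79 ± 0.15 (limma adjusted p = 0.0812). NDUFAF4, a complex I assembly factor, was at -0.69 ± 0.17 (limma adjusted p = 0.0922). COQ3, a methyltransferase of coenzyme Q synthesis, was at -0.77 ± 0.07 (limma adjusted p = 0.0752).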

How the data were processed

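The deposited values were log2 expression values made by the authors with Affymetrix Expression Console 1.2.0.20, per the submitters' processing notes. The sources used here do not give the background correction, the summarization or the normalization. They were used as deposited. Of 33297 probe sets, 21214 were listed in the array annotation, of which 19460 carried 1 gene symbol and 1754 several; 12083 were not listed. Symbols of 19429 probe sets matched RefSeq names (GRCh38.p14) and 31 kept the annotation's symbol. The probe set with the highest mean stood for a gene. The 81 members had 88 probe sets; 2 pseudogenes and a divergent transcript were left out. Genes with a mean at or above the 25th percentile of listed probe sets (5.80) were tested.

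Co-culture and line contrasts were fitted with limma 3.58.1 in R 4.3.3 (lmFit and eBayes, cell line as a block, 2 residual degrees of freedom and a prior worth 3.10), with Benjamini-Hochberg adjustment over 13808 genes and a threshold of 0.05. The script was tested on simulated data. Exact permutation (two-sided) of the 3 pairs cannot reach a p below 0.25 and was not used. Line is the pairing, since the labels give the same line in both groups. Deviations from the group means correlated at 0.789, 0.741 and 0.832 within the lines. Between lines the correlations were below 0, where deviations from a mean of 3 are pushed in any case, so these add no support. The number of arrays limits the precision.

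The members, the lists and the motifs were chosen with earlier results of these data known. The NRF1 motif was shortened at its end after a longer form had been searched, which was in fewer windows of members and of all genes. Named were members past the threshold in co-culture (there were none) and the 2 highest and 2 lowest per complex. Also named were the 3 highest and 3 lowest per line, those 2-fold apart in a line and the isoform pairs. All SDH genes, the 5 with the widest gaps between lines, COXFA4L3, CYC1 and CYCS were named too. Further members were named for their role after their values were seen. Further genes of the other mitochondrial lists were named from the lowest changes of each list. Alternatives covered the filter, low values raised to it, quantile and cyclic loess normalization, the choice of probe set, the block, each line left out, the eBayes prior, the place of COXFA4 and COXFA4L2, and the fold threshold.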

Additional observations from a re-analysis of the deposited data

How the results depend on the processing

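In co-culture minus alone, no member passed the limma adjusted p threshold under any alternative run. The median over all members was -0.39 to -0.30 when a line was left out. Without the replicate block, members lower at an unadjusted limma p under 0.05 numbered 16 rather than 39, and leaving out a line gave 10 to 37 (10 without 92.1, 15 without Mel 270), where 1 line fewer was fitted. Members lower in every remaining line numbered 61 to 64 then, and members higher 3 to 4. Members higher in all 3 lines numbered 2 with cyclic loess and 2 with quantile normalization, instead of 1. At 2-fold instead of 1.5-fold, members lower numbered 1 in 92.1, 1 in Mel 270 and 1 in Mel 290, and members higher in Mel 270 numbered 0, as they did with the filter at the array median. The complex II median was -0.30 in 92.1 with the median of all tested genes subtracted, -0.36 in Mel 270 and -0.25 in Mel 290 with the mean of all probe sets, and -0.23 in Mel 290 with cyclic loess. The complex IV median was -0.20 without the filter, which brought in 4 low isoforms, and in Mel 290 it was -0.12 without the filter and -0.13 with cyclic loess; the cause of the loess differences was not tested. The medians of the complexes stayed below 0 in every setting run, and the block changed no other call. Members with a mean near 0, such as ATP5MGL (-0.03 to 0.40 when a line was left out), could change sign. The share of members with a mean below 0 ran from 89.6% to 93.0% over the settings. Alternatives without the symbols COXFA4 and COXFA4L2 were added after seeing the data. Signals near the filter level, such as those of COXFA4L3 and the low complex IV isoforms, limit what can be said of their folds.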

Other observations

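Several members had more than 1 probe set, which gives a second reading of the same gene. COX6A1 gave -0.35 and -0.34, ATP5MK -0.32 and -0.25, and NDUFV2 0.03 and 0.06, so the readings lay close together. NDUFS4, an accessory subunit that helps to stabilise complex I, gave -0.26 at a mean level of 8.75 and 0.07 on a probe set at 5.25, below the filter level. Both probe sets of NDUFB4 held identical values on all arrays and count as 1 reading. The pseudogene ATP5F1EP2, named for the epsilon subunit gene of the ATP synthase, read -0.12 in 92.1, -0.68 in Mel 270 and -0.33 in Mel 290 (mean -0.37 ± 0.28) at a level of 9.93. UQCRBP1, a pseudogene of UQCRB, was at -0.13 ± 0.14, on the other side of 0 from UQCRB.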
